A study of Mus musculus with 4 samples.

Results

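The ADAM genes encode a family of membrane-anchored proteins named for a disintegrin and a metalloprotease domain. All genes whose annotated symbol is Adam, a number and at most 1 letter were taken, which left out the related Adamts and Adamdec genes. This gave 32 genes of 19505 named genes on the array, each with a single probe set. By their known roles, 19 are genes of sperm and spermatids, 2 of the epididymis, 8 encode somatic proteases and 3 encode neuronal proteins without protease activity. Expression was measured in epididymal fat of mice with the Clariom S Mouse array of Affymetrix, on 4 arrays, 1 for each group. The GW4869 overload mice received GW4869, an inhibitor of extracellular vesicle release, and had synergist ablation, surgery that overloads a muscle mechanically by removing its synergists. The vehicle overload mice received DMSO and had the same surgery, the GW4869 sham mice received GW4869 and sham surgery, and the vehicle sham mice received DMSO and sham surgery. All mice were male. The sources used here do not give strain, age, dose or time after surgery, nor the number of mice behind an array.

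ADAM proteins are made with an inhibitory propeptide that proprotein convertases remove. ADAM10 and ADAM17 then cut the extracellular parts off other membrane proteins, a step known as shedding, which releases cytokines and growth factors such as tumour necrosis factor and starts Notch signalling. A large branch of the mouse family is made in spermatids and kept on the sperm head. These proteins are assembled with the help of testis chaperones, are processed during passage through the epididymis, and in mouse several of them are required for sperm to migrate through the oviduct or bind the egg coat.

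Values are log2 units on the scale the authors deposited. With 1 array per group no difference has a replicate check and no test was possible, so precision is limited by the number of arrays. A floor of log2 6.40 was set at the 95th percentile of the antigenomic background rows, the highest over the 4 arrays, and about 52.5% to 55.6% of named genes lay under it on an array. The 5222 other negative control rows had 95th percentiles of 9.01 to 9.27, so readings between the floor and these values can still lie within background. For differences, values under the floor were set to it, so a difference with 1 array under the floor is a bound and one with both under it is 0. A gene was counted as apart when its difference reached 1.5-fold on the deposited scale. Mature adipocyte markers were high on every array, though not equally, with medians of 16.89 on GW4869 overload, 16.98 on vehicle overload, 17.14 on GW4869 sham and 16.63 on vehicle sham, and Adipoq stood between 19.34 and 19.67. Male reproductive tract genes were not even over the arrays. Of 13 measured markers of spermatids and sperm, 3, 1, 1 and 13 were at or above the floor on GW4869 overload, vehicle overload, GW4869 sham and vehicle sham. Of 12 measured markers of caput and corpus epididymis epithelium, 11, 1, 1 and 5 were. Of 5 genes of the distal epididymis and vas deferens, listed from earlier results of these data, 0, 0, 5 and 5 were, with medians of 4.48, 3.35, 12.57 and 12.05. Tract genes were thus read on both sham arrays and on GW4869 overload. For GW4869 sham this rests on the list of 5 genes. That list was chosen from these data, so its values are no independent support. In RNA from whole tissue, fewer cells of a type and less RNA per cell cannot be told apart.

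Of the 32 ADAM genes, 8 were at or above the floor on GW4869 overload, 6 on vehicle overload, 8 on GW4869 sham and 16 on vehicle sham. In all 19 reached it on at least 1 array and 4 on every array (Adam9, Adam10, Adam17 and Adam23). The other 13 stayed under it everywhere, with readings of 2.05 to 5.78. The median over all 32 genes was 3.78 on GW4869 overload, 3.60 on vehicle overload, 3.69 on GW4869 sham and 6.38 on vehicle sham, against medians over all named genes of 5.84, 5.62, 5.73 and 6.09.

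**Figure D1:**
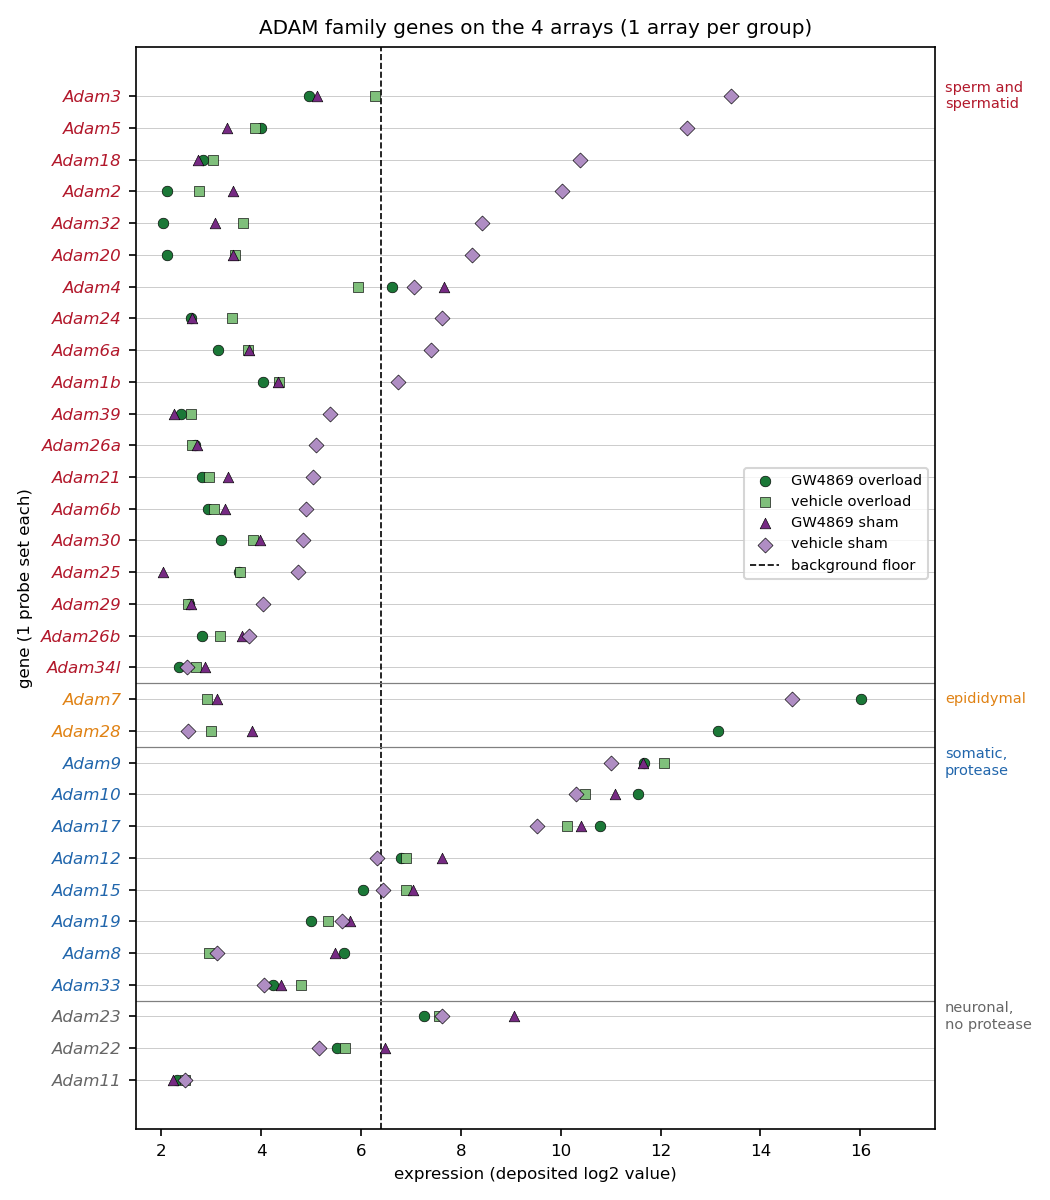
Deposited log2 values of the 32 ADAM genes (rows, grouped by role) on the 4 arrays, 1 point per array, with the background floor of 6.40 as a dashed line. The sperm genes Adam3, Adam5, Adam18 and Adam2 stand at 10.02 to 13.41 on the vehicle sham array alone, Adam7 is high on the GW4869 overload and vehicle sham arrays, and Adam28 is high on GW4869 overload alone.

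The sperm and spermatid members were marked by the vehicle sham array. Of 19 measured, 9 were above the floor there and under it on the other 3 arrays, with values of 6.74 to 13.41 on vehicle sham and 2.04 to 6.28 elsewhere. The share of all named genes with this pattern was not counted. By the 1.5-fold rule 8 of 19 were above every other array on vehicle sham, against 6.69% of all named genes. Adam32, Adam20, Adam24, Adam6a and Adam1b read under 9.01 there, the 95th percentile of the other negative control rows, so they can lie within background. Adam3, whose protein is needed in mouse for sperm to pass into the oviduct, had 4.97 on GW4869 overload, 6.28 on vehicle overload, 5.11 on GW4869 sham and 13.41 on vehicle sham. Adam2, which encodes fertilin beta of the sperm head, had 2.12, 2.75, 3.43 and 10.02 on the same arrays. Both were under the floor on 3 arrays and above it on vehicle sham, with 1 reading per array.

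Adam5 had 4.00 on GW4869 overload, 3.88 on vehicle overload, 3.31 on GW4869 sham and 12.52 on vehicle sham. Adam18 had 2.83, 3.03, 2.74 and 10.39 on these arrays. Adam32 had 2.04, 3.63, 3.08 and 8.43. These 3 genes and Adam3 lie side by side on chromosome 8 in the RefSeq gene order, Adam18, Adam3, Adam5, Adam32, followed directly by Adam9. Adam9, a widely expressed protease, was high on all 4 arrays, at 11.67, 12.06, 11.65 and 11.00, unlike these sperm genes. Other genes beside this row were not examined.

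A second row on chromosome 8 holds Adam24, Adam25, Adam20 and Adam39. Adam24, testase 1, whose protein in mouse helps prevent fertilisation of an egg by several sperm, had 2.60 on GW4869 overload, 3.42 on vehicle overload, 2.61 on GW4869 sham and 7.62 on vehicle sham. Adam20 had 2.11, 3.48, 3.44 and 8.22. Adam25 and Adam39 were under the floor on every array, at 4.75 and 5.38 at most. In all, 13 of the 32 members are on chromosome 8.

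Adam6a, which in mouse lies beside the immunoglobulin heavy chain genes, had 3.14 on GW4869 overload, 3.73 on vehicle overload, 3.77 on GW4869 sham and 7.41 on vehicle sham. Its neighbour and close copy Adam6b had 2.94, 3.06, 3.27 and 4.90, all under the floor. Adam1b, which encodes the fertilin alpha of the sperm surface, had 4.04, 4.37, 4.34 and 6.74, so its vehicle sham reading was the only one above the floor. Probe sets of close copies such as Adam6a and Adam6b, or Adam26a and Adam26b, can bind each other's transcripts, and their values are uncertain for that reason.

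The 9 sperm members under the floor on all arrays had 2.51 to 5.38 on vehicle sham and 2.05 to 3.99 on the other arrays. Readings under the floor have no order, so these genes add nothing to the vehicle sham pattern. Adam4, a testis gene in mouse, had 6.62 on GW4869 overload, 5.94 on vehicle overload, 7.66 on GW4869 sham and 7.06 on vehicle sham, and was the sole member of the branch above the floor on 3 arrays.

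In overload against sham under vehicle, 10 of 32 ADAM genes were at least 1.5-fold lower on vehicle overload, or 31.3%, against 9.3% of all named genes. In the same comparison 2 of 32 were higher, or 6.25%, against 13.8% of all named genes. The median difference was 0.00 over the members and 0.00 over all genes, because values under the floor were set to it. With no floor the medians were -1.15 and 0.21, though readings under the floor have no order. Among the lower ones were 9 of the 19 sperm members. Adam3 had a difference of -7.02 or lower, Adam5 -6.13 or lower, Adam18 -4.00 or lower and Adam2 -3.62 or lower. Adam32, Adam20, Adam24, Adam6a and Adam4 had bounds of -2.03, -1.83, -1.22, -1.01 and -0.67. The Adam1b bound was -0.35, short of 1.5-fold.

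GW4869 against vehicle in sham mice has the same vehicle sham array as its reference, so its readings enter both comparisons. In that comparison 9 of 32 members were at least 1.5-fold lower on GW4869 sham, or 28.1%, against 8.43% of all named genes, and 8 of the 9 were sperm members. Their bounds equal those above, because GW4869 sham and vehicle overload were both under the floor. Adam4 went the other way, with a difference of 0.59. At least 1.5-fold above every other array on vehicle sham were 8 of 32 members, all of the sperm branch, against 6.69% of all named genes. Between the arrays that leave vehicle sham out, 0 of 19 sperm members were apart in GW4869 against vehicle in overloaded mice, where 8.17% of all named genes were higher and 8.4% lower. In overload against sham under GW4869, 1 of 19 was lower, Adam4 at -1.04, where 5.68% of all named genes were higher and 6.69% lower. Sperm members other than Adam4 were under the floor on all of these arrays. Their differences are 0 because of the floor, so these counts cannot show whether they changed.

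Most of the genes that serve the sperm ADAM proteins reached the floor on vehicle sham. Ace, Tpst2 and Pgap1 did so on all 4 arrays. Among all 19505 named genes, 9261 were at or above the floor on vehicle sham. Of 13 measured chaperones and surface partners of ADAM2 and ADAM3, 4 were at or above the floor on GW4869 overload, 3 on vehicle overload, 3 on GW4869 sham and 10 on vehicle sham, and 9 were at least 1.5-fold lower and 1 higher in overload under vehicle, against 9.3% and 13.8% of all named genes. In overload under GW4869, 3 were higher and 0 lower, against 5.68% and 6.69%. Clgn, the calmegin chaperone of the spermatid endoplasmic reticulum, had 4.57 on GW4869 overload, 4.02 on vehicle overload, 3.60 on GW4869 sham and 11.64 on vehicle sham. Ly6k, a membrane-anchored partner of ADAM3, had 3.70, 3.86, 3.60 and 10.17. Tpst2, a tyrosine sulfotransferase, went the other way, with 10.49, 9.22, 9.13 and 8.48, and Rnase10, an epididymal gene in mouse, was above the floor on GW4869 overload alone, at 7.13. The testis markers moved with both sets. All 13 measured spermatid and sperm markers were at least 1.5-fold lower in overload under vehicle, with medians of 4.34, 3.98, 3.17 and 14.65 on the 4 arrays. Of 5 measured Leydig cell markers 2 reached the floor on vehicle sham, with Cyp17a1 at 14.49, and 0 on the others. Of 8 Sertoli cell markers, 3, 2, 2 and 2 reached the floor on the 4 arrays. Clu, which many other cells make too, had 19.40 on GW4869 overload, 14.68 on vehicle overload, 16.14 on GW4869 sham and 16.76 on vehicle sham. Inhbb had 7.63 to 7.88, Sox9 reached the floor on GW4869 overload alone, at 7.73, and the others, Amh, Fshr, Dhh, Rhox5 and Gata4, were under it on all 4 arrays. The distal epididymis list was lower for 5 of 5 genes in overload under vehicle. Its genes had been listed from earlier results of these data, so this count is no independent finding. Smooth muscle markers were lower for 6 of 7, with a median of -3.47. What part these cells have in the ADAM values was not tested.

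**Figure D2:**
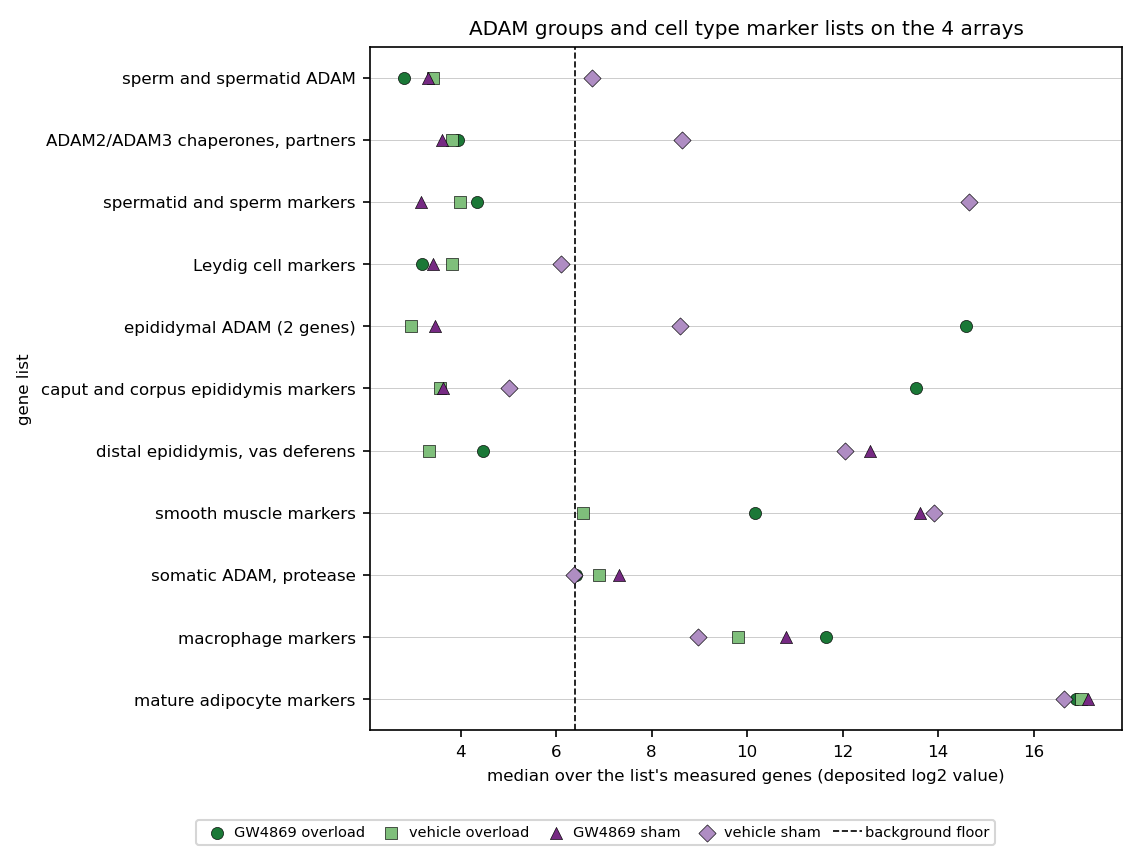
Medians over the measured genes of ADAM groups and marker lists, in deposited log2 units, 1 point per array, with the floor as a dashed line. The sperm ADAM genes, their chaperones and the spermatid markers share the vehicle sham array as their highest, with medians of 6.74, 8.65 and 14.65, and the 2 epididymal ADAM genes and the caput and corpus markers have theirs on GW4869 overload. The distal epididymis list, chosen from earlier results of these data, and the smooth muscle list stand higher on both sham arrays than on both overload arrays.

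RefSeq promoter windows of 300 bases, 250 before and 50 after an annotated start, were found for 16 of the 32 members, with 18 windows in all. They show a feature that played no part in choosing the genes. The 9 sperm members with a window had 0 to 2 CpG dinucleotides, with a median of 1, against a median of 7 and quartiles of 3 and 20 over 32851 windows of all genes. Among them Adam1b, Adam6a and Adam20 were above the floor on vehicle sham. Adam21, Adam25, Adam26b, Adam29, Adam34l and Adam6b, with as few CpG, were under it on every array. No window was found for Adam2, Adam3, Adam5, Adam18, Adam24 or Adam32. Whether CpG content bears on the array values was not tested. The 7 windows of somatic proteases had 5 to 32, and those of Adam22 and Adam23 had 19 and 31. Adam6a and Adam20, which were above the floor on vehicle sham alone, are shown with Adam10 and Adam17, which were above it on every array, in build GRCm38.p6 with CpG in capitals.
Adam6a is at chr12:113543658-113543957 (+) with 1 CpG, Adam20 at chr8:40793023-40793322 (+) with 1, Adam10 at chr9:70678732-70679031 (+) with 32, and Adam17 at chr12:21373583-21373882 (-) with 30.
Adam6a: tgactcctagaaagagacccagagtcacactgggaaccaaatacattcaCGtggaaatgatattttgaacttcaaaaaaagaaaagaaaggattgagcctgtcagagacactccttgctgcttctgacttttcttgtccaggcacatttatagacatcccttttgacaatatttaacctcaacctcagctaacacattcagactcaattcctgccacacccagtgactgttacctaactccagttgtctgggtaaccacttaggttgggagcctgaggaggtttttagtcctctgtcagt
Adam20: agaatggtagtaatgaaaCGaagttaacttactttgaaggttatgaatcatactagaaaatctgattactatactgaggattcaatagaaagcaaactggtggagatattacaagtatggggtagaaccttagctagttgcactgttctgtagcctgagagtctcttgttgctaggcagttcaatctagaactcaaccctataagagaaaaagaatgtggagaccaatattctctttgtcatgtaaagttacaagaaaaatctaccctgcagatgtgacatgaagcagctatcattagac
Adam10: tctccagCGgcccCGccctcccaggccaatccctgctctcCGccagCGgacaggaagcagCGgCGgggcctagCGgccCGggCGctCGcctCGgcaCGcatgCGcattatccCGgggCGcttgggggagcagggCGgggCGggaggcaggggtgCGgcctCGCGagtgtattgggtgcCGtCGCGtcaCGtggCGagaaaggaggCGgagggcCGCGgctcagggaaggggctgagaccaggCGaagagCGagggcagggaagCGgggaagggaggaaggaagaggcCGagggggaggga
Adam17: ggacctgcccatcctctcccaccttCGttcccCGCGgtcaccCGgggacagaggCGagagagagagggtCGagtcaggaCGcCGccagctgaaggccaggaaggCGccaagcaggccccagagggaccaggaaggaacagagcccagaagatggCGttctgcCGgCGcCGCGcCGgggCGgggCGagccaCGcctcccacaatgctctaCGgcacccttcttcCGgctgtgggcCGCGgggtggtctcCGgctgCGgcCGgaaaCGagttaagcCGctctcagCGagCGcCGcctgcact

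Short motifs were also searched on both strands. The GC box GGGCGG, bound by Sp1 and related factors, was in windows of Adam8, Adam10, Adam15, Adam17 and Adam19 and in 35.7% of all windows. The letters TATAAA were in those of Adam6a, Adam6b, Adam29 and Adam34l and in 13.6% of all windows. The full cAMP response element TGACGTCA was in 0 of the 18 and in 1.79% of all. A match describes the letters of the window only.

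**Figure D3:**
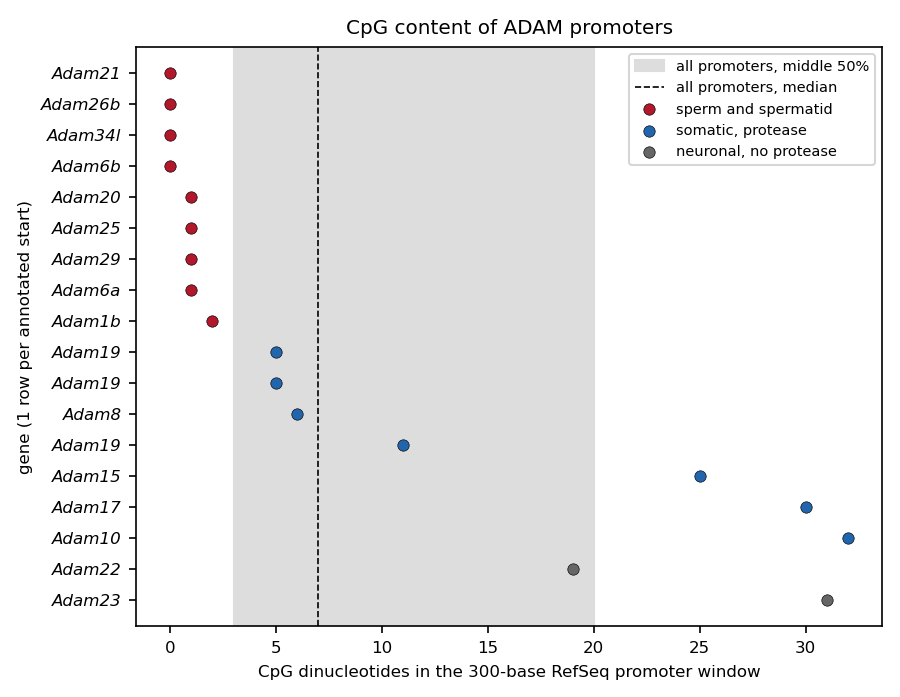
CpG dinucleotides in the RefSeq promoter windows of 16 ADAM genes (1 row per annotated start), with the middle 50% and the median of all promoters in grey and as a dashed line. The 9 sperm genes have 0 to 2, under the lower quartile of 3, and Adam10, Adam17 and Adam23 have 30 or more.

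Both epididymal members had their highest reading on the GW4869 overload array, and Adam7 was high on vehicle sham too. Adam7, made by the epididymal epithelium and handed to passing sperm in mouse, had 16.01 on GW4869 overload, 2.92 on vehicle overload, 3.11 on GW4869 sham and 14.64 on vehicle sham. Adam28, a protease also known from lymphocytes and epididymis, had 13.14, 3.01, 3.81 and 2.54. Adam7 was therefore high on 2 arrays and Adam28 on 1 of them, although the genes lie close together on chromosome 14 with Adamdec1 between them.

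In overload against sham under GW4869, both were at least 1.5-fold higher, with differences of at least 9.62 for Adam7 and at least 6.75 for Adam28. They were the only members that were higher, 2 of 32 or 6.25%, against 5.68% of all named genes. They were also the 2 members at least 1.5-fold above every other array on GW4869 overload, which was so for 3.49% of all named genes. The bounds were the same in GW4869 against vehicle in overloaded mice, since GW4869 sham and vehicle overload were both under the floor. In overload against sham under vehicle Adam7 had -8.24 or lower and Adam28, under the floor on both arrays, had 0.00. The overload differences of Adam7 were thus of opposite sign under GW4869 and vehicle.

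The caput and corpus markers did not share 1 pattern over the arrays. Gpx5 had 19.53 on GW4869 overload, 3.97 on vehicle overload, 4.51 on GW4869 sham and 4.18 on vehicle sham, the distribution of Adam28. Lcn8, Lcn9, Spag11b, Ovch2, Cst11 and Defb20 were likewise above the floor on GW4869 overload alone. Lcn5 had 13.38, 2.94, 4.47 and 14.22, the distribution of Adam7, and Lcn12 and Rnase12 were above the floor on the same arrays. Rnase9 was above it on every array, at 6.65 on GW4869 overload, 6.69 on vehicle overload, 6.63 on GW4869 sham and 13.43 on vehicle sham. All but the last lay near the floor. Defb38 had 4.60, 3.82, 3.48 and 16.55, high on vehicle sham alone. The medians of the 12 measured markers were 13.53, 3.56, 3.62 and 5.02. Of 5 measured B cell markers, which bear on Adam28 as a lymphocyte gene, 1 reached the floor on GW4869 overload, Cd79a at 6.88, and 0 on the other arrays. The part of epididymal tissue in the Adam7 and Adam28 values was not tested.

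**Figure D4:**
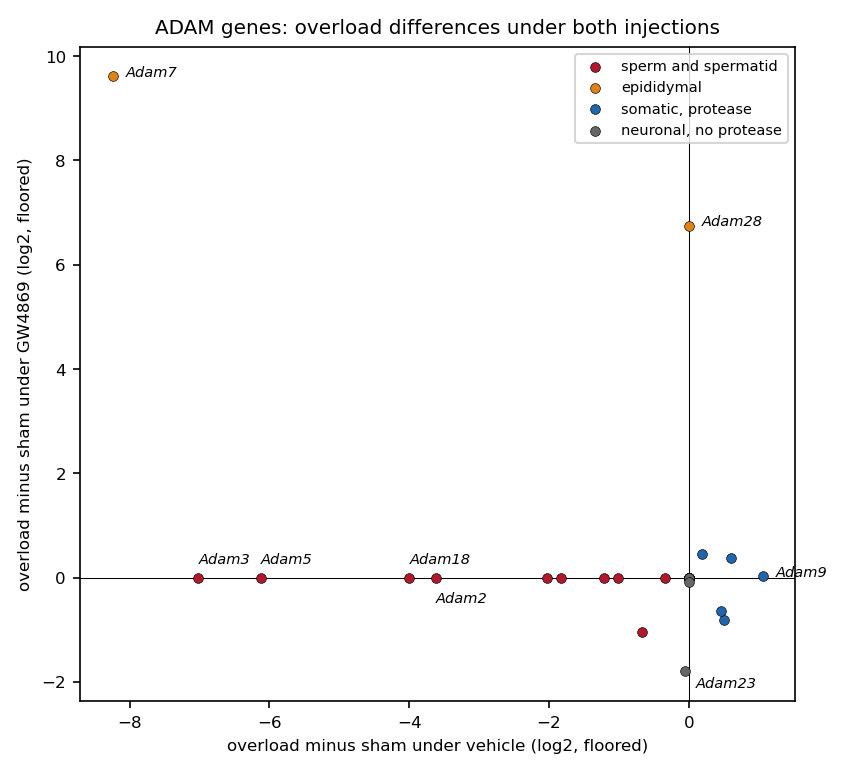
Overload minus sham in log2 units under vehicle (x axis) and under GW4869 (y axis) for the 32 ADAM genes, with lower readings raised to the floor. The red sperm genes other than Adam4 spread to the left at 0 on the y axis, down to -7.02 for Adam3, and Adam4 stands at -0.67 and -1.04. Adam7 stands at -8.24 and 9.62, Adam28 at 0.00 and 6.75, and genes under the floor on all arrays share the point at 0.

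The somatic proteases varied far less. Adam10, the main shedding protease for Notch and many adhesion proteins, had 11.54 on GW4869 overload, 10.49 on vehicle overload, 11.09 on GW4869 sham and 10.30 on vehicle sham. Adam17, the tumour necrosis factor converting enzyme, had 10.79, 10.12, 10.42 and 9.52. Both genes stood higher on each GW4869 array than on either vehicle array. In overloaded mice Adam10 was 1.06 and Adam17 0.67 higher with GW4869 than with vehicle, and in sham mice they were 0.79 and 0.90 higher.

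The size of these differences depended on the scaling between arrays. Their sign could not change, because both centrings shifted each comparison by less than 1.5-fold. Centring all arrays on the adipocyte markers left Adam10 and Adam17 at 1.15 and 0.76 in overloaded mice and at 0.28 and 0.39 in sham mice. This centring used the median level of the markers, which was the reading of Cidec on every array. With GW4869 against vehicle, Cidec differed by -0.09 in overloaded mice and by 0.50 in sham mice. The median differences over the markers, given below, were not used for centring. Centring on the median of all named genes gave 0.84 and 0.46 in overloaded mice and 1.15 and 1.26 in sham mice. Macrophage markers moved in the same direction. Of 7 measured, 4 were at least 1.5-fold higher with GW4869 in overloaded mice and 7 in sham mice, and their medians were 11.65 on GW4869 overload, 9.81 on vehicle overload, 10.81 on GW4869 sham and 8.98 on vehicle sham. Adipocyte markers moved the opposite way in overloaded mice, where 7 of 11 were at least 1.5-fold lower with GW4869 and 0 higher, with a median difference of -0.79. In sham mice 1 of 11 was higher and 0 lower, with a median of 0.18. The part of macrophages and adipocytes in the Adam10 and Adam17 values was not tested.

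Adam9 had its highest value on vehicle overload. Against vehicle sham it was 1.06 higher, or 0.71 with adipocyte centring and 1.53 with all-gene centring, while under GW4869 overload and sham differed by 0.03. Adipocyte markers were at least 1.5-fold higher for 5 of 11 in the same comparison under vehicle, with a median of 0.42, and their part in the Adam9 value was not tested. Adam17, at 0.60, was the other member at least 1.5-fold higher in overload under vehicle, and had 0.25 with adipocyte centring. Adam12, meltrin alpha, which in mouse promotes the formation of fat cells, had 6.80 on GW4869 overload, 6.90 on vehicle overload, 7.61 on GW4869 sham and 6.32 on vehicle sham. Adam15, a protease of vessel and epithelial cells, had 6.04, 6.91, 7.04 and 6.44. Both genes were near the floor on all arrays, with Adam12 under it on vehicle sham and Adam15 under it on GW4869 overload.

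**Figure D5:**
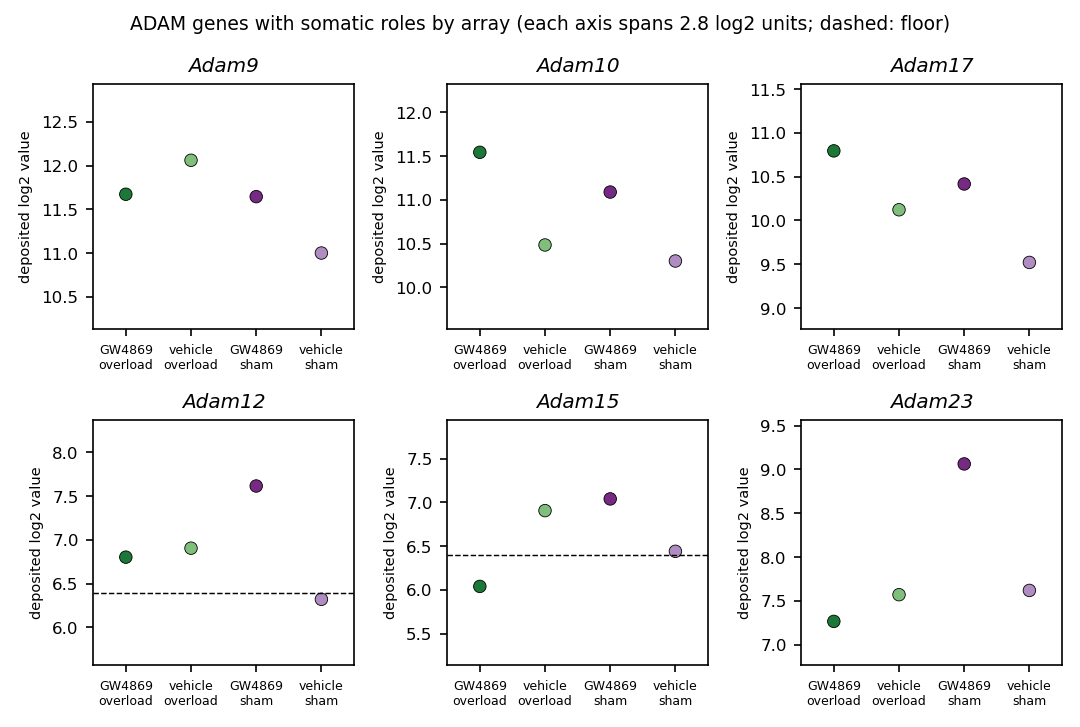
Deposited log2 values of 5 somatic ADAM proteases and Adam23 on the 4 arrays, 1 point per array, each panel spanning the same range of log2 units, with the floor as a dashed line where it falls in the panel. Adam10 and Adam17 are higher on both GW4869 arrays than on both vehicle arrays, Adam9 peaks on vehicle overload at 12.06 and Adam23 on GW4869 sham at 9.06.

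In overload against sham under GW4869, 4 of 32 members were at least 1.5-fold lower, or 12.5%, against 6.69% of all named genes. They were Adam23, at -1.80, Adam4, at -1.04, Adam12, at -0.81, and Adam15, at -0.64 or lower. Centring on the adipocyte markers brought Adam12 to -0.57 and Adam15 to -0.14, both short of 1.5-fold. Other lists were lower in the same comparison. Smooth muscle markers were lower for 6 of 7, with a median of -2.11, and the distal epididymis and vas deferens list for 5 of 5, with a median of -6.17. The latter list was chosen from earlier results of these data, so its direction is no independent finding. Adipocyte markers were lower for 2 of 11, with a median of -0.37. The part of these tissues in the ADAM differences was not tested. Adam23, a neuronal protein that binds secreted LGI ligands, had 7.27 on GW4869 overload, 7.57 on vehicle overload, 9.06 on GW4869 sham and 7.62 on vehicle sham, with GW4869 sham apart from the other 3 arrays. Adam22, a relative of like function, had 5.51, 5.69, 6.48 and 5.16, with GW4869 sham as its only reading above the floor. All readings of Adam22 and Adam23 were under the 95th percentile of the other negative control rows on their own array. On GW4869 sham that percentile was 9.18. The same holds for Adam4, Adam12 and Adam15, so the values of all these genes can lie within background. Under vehicle, overload and sham differed by -0.05 for Adam23, by 0.51 for Adam12 and by 0.46 for Adam15. The overload difference under GW4869 minus that under vehicle was -1.75 for Adam23, -1.32 for Adam12, -1.11 for Adam15 and -1.03 for Adam9, none of which could be tested.

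In GW4869 against vehicle in overloaded mice, 4 of 32 members were at least 1.5-fold higher, Adam7, Adam28, Adam10 and Adam17, or 12.5% against 8.17% of all named genes, and 0 of 32 lower against 8.4%. In sham mice 7 of 32 were higher, or 21.9% against 13.1% of all named genes. These were Adam23 at 1.44, Adam12 at 1.22 or more, Adam17 at 0.90, Adam10 at 0.79, Adam9 at 0.64, Adam15 at 0.60 and Adam4 at 0.59. With adipocyte centring 2 of the 7 stayed past 1.5-fold, Adam23 at 0.94 and Adam12 at 0.71, and the share of all named genes that were higher was 3.88%. With all-gene centring 6 of 32 members were higher, where 23.7% of all named genes were. The members thus did not exceed the share of all genes under that scaling.

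Of the somatic members under the floor on every array, Adam19 reached 5.78 at most and Adam33 4.80. Adam8, a protease of leukocytes named here because of its values, read 5.66 on GW4869 overload, 2.96 on vehicle overload, 5.48 on GW4869 sham and 3.11 on vehicle sham. All 4 readings were under the floor and have no order. Neutrophil markers, also leukocyte genes, reached the floor for 4 of 5 on GW4869 overload and 0 on the other arrays. Adam11, a neuronal member, had 2.24 to 2.48.

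Partners of the shedding proteases were read from lists of their own. Of 9 genes that carry ADAM10 or ADAM17 to the cell surface, 2 were at least 1.5-fold higher and 2 lower in overload under GW4869, against 5.68% and 6.69% of all named genes. In overload under vehicle 2 were higher and 0 lower, against 13.8% and 9.3%. For GW4869 in overloaded mice 1 was higher and 0 lower, against 8.17% and 8.4%, and in sham mice 2 and 0, against 13.1% and 8.43%. With adipocyte centring 0 were higher in overload under vehicle and 0 for GW4869 in sham mice. Tspan15, a tetraspanin that escorts ADAM10, had 10.17 on GW4869 overload, 8.85 on vehicle overload, 9.07 on GW4869 sham and 8.90 on vehicle sham, and was high on the first alone. Tspan5, another escort of ADAM10, had 9.95, 10.41, 11.19 and 10.20. Rhbdf2, the iRhom that matures ADAM17 in immune cells, was under the floor on every array at 5.41 to 5.92, and Rhbdf1 had 8.01, 8.29, 7.65 and 7.45.

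All 4 listed proprotein convertases were above the floor throughout. Pcsk5 had 9.97 on GW4869 overload, 10.21 on vehicle overload, 10.10 on GW4869 sham and 8.32 on vehicle sham, the lowest of the 4. Pcsk6 had 10.17, 11.90, 11.77 and 11.11. Of the 4 TIMP inhibitors, Timp3, which blocks ADAM17, had 10.05, 10.28, 10.64 and 9.88, and Timp1, which blocks ADAM10, had 9.64 on GW4869 overload and was under the floor on the other arrays. Timp2 had 14.28, 14.50, 15.40 and 14.29, and Timp4 had 13.65, 14.60, 15.08 and 14.70. In overload under GW4869 Timp2, Timp3 and Timp4 were lower, at -1.12, -0.59 and -1.43, and Timp1 was higher.

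Of 25 listed genes whose proteins ADAM10 or ADAM17 shed, 23 were measured. In overload under GW4869, 2 were at least 1.5-fold higher and 0 lower, against 5.68% and 6.69% of all named genes, and in overload under vehicle 4 and 1, against 13.8% and 9.3%. For GW4869 against vehicle, 4 were higher and 1 lower in overloaded mice, against 8.17% and 8.4%, and 7 and 1 in sham mice, against 13.1% and 8.43%. With adipocyte centring 2 were higher in sham mice, where 3.88% of all named genes were. Cdh1, the epithelial cadherin, had 14.07 on GW4869 overload, 4.46 on vehicle overload, 9.40 on GW4869 sham and 10.67 on vehicle sham. Cxcl16, a membrane chemokine, had 10.55, 8.89, 10.53 and 7.95, and Tnfrsf1b, a tumour necrosis factor receptor, had 10.76, 9.17, 10.77 and 9.02, so that both were higher on the GW4869 arrays than on the vehicle arrays. Vcam1, a vascular adhesion protein, had 9.44, 7.55, 8.03 and 7.58. Tnf itself was under the floor on every array, at 2.36 to 5.97. The median difference over the 23 genes was 0.00 in all 4 comparisons, as it was over all named genes, because values under the floor were set to it. With no floor the medians were 0.12 in overload under GW4869, 0.47 in overload under vehicle, and 0.20 and 0.44 for GW4869 in overloaded and sham mice. Over all named genes they were -0.05, 0.21, -0.08 and 0.19.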

How the data were processed

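Expression was measured on 4 arrays of total RNA, 1 per group, and groups were taken from the sample titles. The authors deposited 1 log2 value for each probe set and array. Per the submitters' processing notes, the tools were Partek and RMA. The sources used here do not give their versions, the background step, the normalization settings or the genome build. The log2 values run from 1.16 to 19.93, and the step behind so wide a range was not identified, so a fold holds on the deposited scale only.

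A platform annotation gave 19572 of 28846 rows 1 gene symbol and 0 several. Each of 19505 genes was represented by its probe set of highest mean. All 32 ADAM genes were found by Entrez identifier in the RefSeq gene table. Adam1a and Adam34 are not analysed here. Differences of log2 values and counts past 1.5-fold were computed with Python 3.11.15, pandas and numpy, and counting was checked on simulated data. No p-value was computed. The members, gene lists, floor and comparisons were chosen with earlier results of these data known, and motifs and the CpG count after the values were seen. The genes named are the members at or above the floor on at least 1 array, with others marked or given by their range, and, of each partner list, genes among the 4 with the largest difference in a comparison. Tnf, Rhbdf2 and the marker genes were named outside this rule, after their values were seen. Alternatives, of which the centrings of partner lists were chosen after seeing the data, were 2 centrings of the arrays, 2 other floors, a 2-fold threshold and the mean of a gene's probe sets.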

Additional observations from a re-analysis of the deposited data

Results flagged for a closer look

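Adam7 was singled out because its differences had opposite signs under the same contrast. Overload minus sham was at least 9.62 under GW4869 and -8.24 or lower under vehicle. The same values came from GW4869 minus vehicle, at least 9.62 in overloaded mice and -8.24 or lower in sham mice, since the 2 arrays with readings under the floor enter each contrast. With 1 array per group the difference between the effects was not tested. Of 12 measured caput and corpus epididymis markers, 11 were at or above the floor on GW4869 overload, 1 on vehicle overload, 1 on GW4869 sham and 5 on vehicle sham. Gpx5, Lcn8, Lcn9, Spag11b, Ovch2, Cst11 and Defb20 were above it on GW4869 overload alone. Lcn5, Lcn12 and Rnase12 were above it on the arrays on which Adam7 was high. Defb38 was above it on vehicle sham alone. Rnase9 was above it on every array, with 13.43 on vehicle sham and readings near the floor on the others. It was the 1 marker counted on vehicle overload and on GW4869 sham, at 6.69 and 6.63. The part of these markers in the Adam7 values was not tested.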

How the results depend on the processing

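No paired analysis was possible because each group has 1 array, and no array could be left out without losing its group. Across 19 ADAM genes, 4 comparisons and 4 settings, 0 differences past 1.5-fold changed sign. That count was fixed in advance, since the centrings shifted each comparison by less than 1.5-fold and a floor cannot reverse a difference. It therefore says nothing about how firm the signs are. Adipocyte centring moved 10 of 76 across the 1.5-fold line, all-gene centring 6, the floor at the 40th percentile of gene means 7 and no floor 18. The mean of probe sets could change no member, since each has 1 probe set. The centrings subtracted -0.02, 0.07, 0.23 and -0.28 (adipocyte) or 0.02, -0.20, -0.09 and 0.27 (all genes) on GW4869 overload, vehicle overload, GW4869 sham and vehicle sham. Adipocyte centring rests on 1 gene, because the median level of its markers was the reading of Cidec on every array.

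With adipocyte centring the higher members were 4 and the lower 2 in overload under GW4869, 1 was higher in overload under vehicle, and 2 were higher with GW4869 in sham mice. With all-gene centring 1 was lower with GW4869 in overloaded mice. With the 40th percentile floor that count was 2, and the medians were -0.20 in overload under vehicle and -0.039 for GW4869 in sham mice. A 2-fold threshold left 2 lower in overload under GW4869, 1 higher in overload under vehicle and 2 higher with GW4869 in sham mice. With no floor 4 were higher and 12 lower in overload under GW4869, 18 lower in overload under vehicle, and 8 and 17 lower with GW4869 in overloaded and sham mice. The medians with no floor were -0.24, -1.15, -0.19 and -1.15. Of all named genes apart, the higher share was 45.9% in overload under GW4869, 33.7% with all-gene and 74.4% with adipocyte centring. In overload under vehicle it was 59.7%, 80.4% and 31.3%. For GW4869 in overloaded mice it was 49.3%, 28.9% and 58.6%, and in sham mice 60.8%, 79.3% and 21.0%. Signal over background limits the 13 members under the floor on every array, for which no difference can be given.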
